A study of Mus musculus with 8 samples.

Results

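The nuclear tRNA rows for lysine, arginine and histidine, the basic amino acids, were taken from a count table of small RNAs in mouse testis. Members were all rows of the table's tRNA classes whose name carries Lys, Arg or His with an anticodon, which gave 53 of 20558 rows and 53 of 363 nuclear tRNA rows. They comprised 20 lysine rows, 23 arginine rows and 10 histidine rows. Small RNA was sequenced from total testis RNA of 8 adult C57Bl/6 males, 1 library per mouse. The 4 controls, M1N, M2N, TN1 and TN2, were kept on standard chow (SD), and the 4 other males, M1W, M2W, M3W and M5W, on a high-fat, high-sugar Western-like diet (WD). Per the labels, the diet began at 4 weeks of age and the males were mated at 4 months, whereas the study's methods give a younger age for the start of the diet. The label text on rearing names a high-fat diet for all 8 mice, so the diet of each mouse was taken from its title and the series design. The comparison asks whether the diet changed the small RNA content of the testis.

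A tRNA brings an amino acid to the ribosome and pairs with a codon through its anticodon. tRNAs of the same amino acid with different anticodons are isoacceptors, and most are encoded by several gene copies scattered over the genome. Full-length tRNAs are longer than most small RNA reads, and tRNAs are also cut at the anticodon or elsewhere into fragments that are abundant in the male germ line and sperm. Lysine is read by the anticodons CTT and TTT. Arginine has a box of codons beginning with CG, read by ACG, CCG and TCG, and a pair beginning with AG, read by CCT and TCT. Histidine has the single anticodon GTG, and its tRNA is known for an extra guanosine added after transcription at the 5′ end.

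The sequences below are those of abundant rows and of rows with the same anticodon or a like sequence, shown so that the counts of rows can be read beside the bases in which they differ. They come from a search of the NCBIM37 genome, the same assembly as mm9, for genes that fold as a tRNA with a Lys, Arg or His anticodon. All are given 5′ to 3′ as DNA with the anticodon in capitals, and positions are counted from 1 at the 5′ end of the gene.
LysCTT-a: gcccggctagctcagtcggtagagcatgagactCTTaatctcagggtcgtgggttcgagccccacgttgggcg
LysCTT-b: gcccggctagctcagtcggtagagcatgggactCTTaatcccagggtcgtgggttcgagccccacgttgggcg
LysCTT-d: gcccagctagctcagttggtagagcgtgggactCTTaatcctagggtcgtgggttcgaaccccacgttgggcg
LysTTT-a: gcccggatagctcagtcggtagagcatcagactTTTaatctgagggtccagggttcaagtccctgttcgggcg
LysTTT-b: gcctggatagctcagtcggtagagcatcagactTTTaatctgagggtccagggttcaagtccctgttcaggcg
HisGTG-a: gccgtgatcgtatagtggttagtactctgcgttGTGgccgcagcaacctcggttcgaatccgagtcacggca
ArgCCG-a: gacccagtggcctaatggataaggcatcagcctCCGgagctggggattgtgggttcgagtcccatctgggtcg
ArgCCG-c: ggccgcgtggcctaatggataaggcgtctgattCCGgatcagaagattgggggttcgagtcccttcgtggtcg
ArgCCT-c: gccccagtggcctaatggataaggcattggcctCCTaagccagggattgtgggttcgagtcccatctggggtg

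The search found 50 genes with 25 distinct sequences. In 6 of the 8 isoacceptors the genes matched the rows in number and chromosome. A row was assigned a sequence only where all genes of its anticodon on its chromosome had the same sequence and equalled its rows in number, which held for 30 of 53 rows. For ArgTCT 1 gene was found, on a chromosome where none of the 4 rows lies, and the search takes no intron. LysCTT-b differs from LysCTT-a by A29G and T41C, positions that face each other in the anticodon stem. Its 2 genes lie between annotated genes at chr9:90021347-90021419 and chr12:72070107-72070179, both on the minus strand. LysTTT-b differs from LysTTT-a by C4T and G69A, which face each other in the acceptor stem. Its matched gene is at chr7:29579007-29579079 on the minus strand, inside an intron of Rinl, a gene of the plus strand.

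LysTTT-a has 6 genes, among them an oppositely oriented pair on chromosome 1 at chr1:134930539-134930611 on the plus strand and chr1:134930904-134930976 on the minus strand, nearest to the coding gene Mdm4 and outside it. The tables' rows for that pair are chr1.tRNA485-LysTTT and chr1.tRNA1184-LysTTT. ArgCCG-a is a single intergenic gene at chr11:106874180-106874252 on the plus strand. ArgCCG-c, at chr17:23687230-23687302 on the minus strand, differs from it at 15 positions although the anticodon is the same. ArgCCG-a is closer to ArgCCT-c, from which it differs at 9 positions. HisGTG-a has 8 genes on 3 chromosomes, and the copy at chr4:82265527-82265598 on the minus strand lies in an intron of Nfib.

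Total counts were 2064562 to 3253798 in SD mice and 2159625 to 3092399 in WD mice, so that 3 counts, the floor of detection used here, correspond to 0.922 to 1.45 counts per 1000000 of a library's total. CPM values given for rows and sums are counts per 1000000 after scaling by the trimmed mean of M values (TMM). Intervals of fold changes include the spread between mice, whereas binomial intervals of shares and floors cover counting error only. piRNAs took 84.4% to 88.6% of the counts, and all 9 germ cell miRNAs chosen to check the tissue were present, at a summed 18937 to 22935 CPM in SD mice and 18963 to 23984 in WD mice. Nuclear tRNA rows held 1.58% to 2.29% of the counts in SD mice and 1.41% to 2.19% in WD mice, and rRNA, a sign of RNA quality, 0.115% to 0.135% and 0.107% to 0.131%. Marker miRNAs of blood (2 of 3 listed, miR-486-5p absent from the table) summed to 38.3 to 148 CPM in SD and 74.6 to 132 in WD mice, and those of immune cells (3 of 3) to 157 to 432 and 128 to 339. Muscle markers (2 of 3) reached 36.7 to 46.3 and 26.7 to 51.7, stromal markers (3 of 3) 4047 to 5858 and 4176 to 7709.7, and the liver marker miR-122-5p 0 to 15.4 in SD mice and 0 in every WD mouse. The part of other cells in the results was not tested, and in bulk testis fewer cells of a type and less RNA per cell cannot be told apart.

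Lysine tRNAs dominated the members. They held 94.7% to 96.5% of the members' counts in each mouse, and all members together held 21.9% to 27.8% of the counts on nuclear tRNA rows. Both shares are from sums over rows, which may hold a read several times. With only the highest row of each isoacceptor, mean counts were 1714.8 for lysine, 188.0 for arginine and 40.2 for histidine. A count here is a read assigned to a tRNA row, and a fragment and an uncut tRNA give the same count. The genes found are 72 to 74 bases long, so counts per row compare isoacceptors without a correction for length. Levels are given in CPM. LysCTT averaged 269 CPM per row (SD 62.8, n = 8 mice), LysTTT 145 (SD 27.4), ArgCCG 19.4 (SD 5.78), HisGTG 8.71 (SD 1.17) and ArgCCT 5.4 (SD 1.21). Each of these 5 stood above the next in 8 of 8 mice, and ArgCCT above ArgTCG in 8 of 8. The order of the lowest did not hold beyond the spread between mice: ArgTCG, at 1.59 (SD 0.324), exceeded ArgTCT, at 1.54 (SD 0.423), in 5 of 8 mice, and ArgTCT exceeded ArgACG, at 0.945 (SD 0.298), in 6 of 8.

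**Figure D1:**
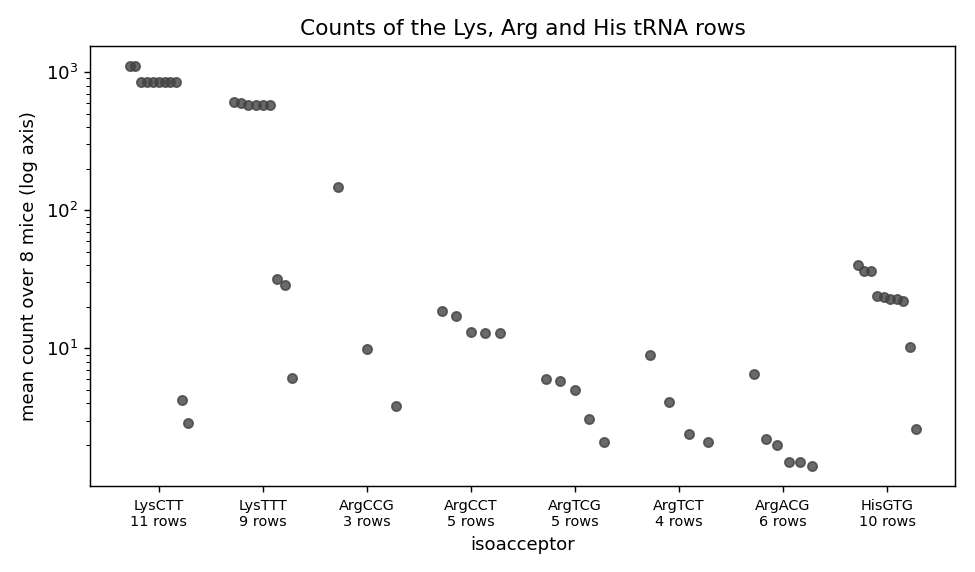
Mean count over 8 mice (log axis) of each of the 53 rows, one dot a row, grouped by isoacceptor. LysCTT and LysTTT each hold a plateau of near-equal rows and a few rows far below it, and ArgCCG holds 1 row at 147.9 and others at 9.9 and 3.8.

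The lysine rows formed plateaus that followed the sequence. The 6 rows matched to LysCTT-a had mean counts of 843.5 to 853.4, and within a mouse they differed by 0.662% to 1.72% of their mean. Both LysCTT-b rows had means of 1108.8 and 1108.9 and differed by at most 0.237% within a mouse. Such rows varied less than independent counts would: the variance over the mean was at most 0.056 for LysCTT-a and 0.00237 for LysCTT-b, where independent Poisson counts give values near 1. Rows of one sequence were thus not independent counts, and a sum over them may hold a read several times. For the 5 LysTTT-a rows, at 575.6 to 605.9, the variance over the mean was 0.11 to 0.907.

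The LysCTT-b rows carried more counts per row than the LysCTT-a rows in every mouse, although only 2 bases separate the sequences. All other bases are shared and the authors' alignment allowed mismatches, so a read may be counted in rows of both. The ratio therefore compares rows, not levels of separate tRNAs. The ratio was 1.26 in M1N, 1.65 in M2N, 1.18 in TN1 and 1.16 in TN2. In WD mice it was 1.45 in M1W, 1.32 in M2W, 1.09 in M3W and 1.24 in M5W. The diets overlapped, with the highest ratio in a control and the lowest in a WD mouse. LysCTT-d, on the X chromosome and 5 substitutions from LysCTT-b, averaged a count of 4.2 per mouse. Its row, chrX.tRNA643-LysCTT, was at 1 to 8 counts in the 8 mice. It was too low to be tested.

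The highest lysine row was chr9.tRNA1035-LysCTT, of sequence LysCTT-b. Its counts were 1639 in M1N, 1666 in M2N, 1280 in TN1 and 702 in TN2. In WD mice they were 1044 in M1W, 997 in M2W, 699 in M3W and 844 in M5W. On the CPM scale these are 562, 531, 403 and 325 in the controls, with a mean of 455 ± 111 (SD, n = 4). The WD values are 343, 437, 322 and 263 in the same order, with a mean of 341 ± 72.5 (SD, n = 4). M1N and M2N lay above every WD mouse, whereas TN1 and TN2 lay within the WD range, so the groups overlapped. The log2 fold change, WD against SD, was -0.42 (SE 0.20, 95% interval -0.85 to 0.02, adjusted p = 0.352 by the quasi-likelihood test of edgeR, with the Benjamini-Hochberg method applied to all 16955 rows tested).

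Of the 53 members 34 had enough counts to be tested, and 0 passed an adjusted p of 0.05, as did 0.0% of all 16955 rows tested. DESeq2 and limma-voom also called 0 members, for which the share of all rows called is not given here. At an unadjusted p of 0.05 or less edgeR had 2 of the 34, both lower in WD mice, where 14.6% of all rows reached that value and 7.83% did so with a lower level in WD. That count was 11 of 34 without TN2 and 11 of 34 without M2W, where 22.8% and 15.1% of all rows reached it, and 1 without TN1 and 1 without M5W, beside 19.1% and 7.49%. The rows that share a sequence enter it together. Without a filter on low counts it was 4 of 53, beside 13.3%. The smallest adjusted p over all rows was 0.318. The fold change was negative in 26 members and positive in 8, with a median of -0.20 on the log2 scale, beside a median of -0.01 for all rows. The 194 tested of 310 other nuclear tRNA rows had a median of -0.13, with 0 called and 16 at an unadjusted p of 0.05 or less, 14 of them lower. The direction of single members is counted repeatedly where rows share a sequence. In all 34 tested members the CPM values of the diets overlapped, whereas they did not overlap in 5.69% of all rows tested.

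Since the control names fall into M and TN, the comparison was repeated against each pair of controls. Against M1N and M2N alone, 2 members were called, chr9.tRNA1035-LysCTT and chr12.tRNA790-LysCTT, both of sequence LysCTT-b and with nearly equal counts in every mouse. Each had a log2 fold change of -0.68 and an adjusted p of 0.0183 by edgeR. In that comparison 20.8% of all rows tested were called, so 2 of 34 is not above the background. Before adjustment 9 members reached a p of 0.05, beside 35.5% of all rows. Against TN1 and TN2 alone, 0 members were called, where 0.134% of all rows were, and 3 reached a p of 0.05 before adjustment, beside 3.79% of all rows. There the log2 fold change of both LysCTT-b rows was -0.10. M and TN are known only from the names, and what else they mark is not given in the sources used here. Both comparisons use the same 4 WD mice.

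Summed over the 11 rows, LysCTT was 4237, 3319, 3204 and 2611 CPM in M1N, M2N, TN1 and TN2. In M1W, M2W, M3W and M5W it was 2341, 3198, 2710.2 and 2010.4 CPM. All controls except TN2 lay above all WD mice. The fold change of the sum was -0.38 on the log2 scale (SE 0.20, 95% interval -0.79 to 0.04, adjusted p = 0.367 by edgeR). Against M1N and M2N alone it was -0.56 (adjusted p = 0.0558), and against TN1 and TN2 alone -0.18. Of the 8 isoacceptor sums 0 were called against either pair, where 21.6% and 0.112% of the rows of that table were, and before adjustment LysCTT alone reached a p of 0.05 against M1N and M2N, 1 of 8 beside 35.8%.

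LysTTT, the decoder of AAA codons, was less abundant. Its sum over 9 rows was 1555, 1373, 1465 and 1192 CPM in the 4 controls and 1122, 1616, 1221 and 877 in the 4 WD mice, in the order given above. The WD mouse M2W had the highest value of all and M5W the lowest, so the controls lay inside the WD range. The fold change of the sum was -0.20 on the log2 scale (SE 0.19, 95% interval -0.61 to 0.20, adjusted p = 0.602 by edgeR).

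The chromosome 1 pair of LysTTT genes share the sequence LysTTT-a, so a read within the gene cannot be assigned to one of them, and near-equal counts say nothing of each gene. chr1.tRNA485-LysTTT had counts of 760 in M1N, 721 in M2N, 773 in TN1 and 422 in TN2, and of 572 in M1W, 617 in M2W, 445 in M3W and 483 in M5W. chr1.tRNA1184-LysTTT had 723, 701, 742 and 412 in the controls and 557, 596, 423 and 451 in the WD mice. In CPM chr1.tRNA485-LysTTT averaged 232 ± 27.6 (SD, n = 4) in SD and 203 ± 50.3 (SD, n = 4) in WD mice. Log2 fold changes were -0.19 (SE 0.19, edgeR's adjusted p = 0.61) for chr1.tRNA485-LysTTT and -0.20 (SE 0.19, edgeR's adjusted p = 0.595) for chr1.tRNA1184-LysTTT. The highest LysTTT row, chr19.tRNA107-LysTTT of the same sequence, had -0.21 (SE 0.19, edgeR's adjusted p = 0.584). Without M2W the pair was at -0.36 and -0.37, and without M5W at -0.07 in both rows, with 0 of them called.

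The 2 rows at an unadjusted p of 0.05 or less, chr13.tRNA83-LysTTT and chr7.tRNA1276-LysTTT, were named after their values were seen. Both sit far below the LysTTT plateau, with mean counts of 31.6 and 29.0, and chr7.tRNA1276-LysTTT is the row matched to LysTTT-b. Its counts were 35 in M1N, 24 in M2N, 62 in TN1 and 34 in TN2, and 19 in M1W, 24 in M2W, 18 in M3W and 16 in M5W. In CPM the controls were at 12, 7.65, 19.5 and 15.7, and the WD mice at 6.25, 10.5, 8.29 and 4.98. TN1, TN2 and M1N lay above every WD mouse, and M2N within the WD range. The log2 fold change was -0.89 (SE 0.32, 95% interval -1.57 to -0.22, adjusted p = 0.318 by edgeR).

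The chromosome 13 row was close to it. chr13.tRNA83-LysTTT had 14.4, 8.61, 20.5 and 17.1 CPM in the controls and 6.57, 11, 9.68 and 4.98 CPM in the WD mice, with a log2 fold change of -0.94 (SE 0.31, 95% interval -1.60 to -0.28, adjusted p = 0.318 by edgeR). The size of both depended on the controls used. Against TN1 and TN2 alone it was -1.28 for each (adjusted p = 0.165 and 0.164 by edgeR). With the adjustment made within the 229 tRNA rows tested there, both were called (adjusted p = 0.011 each), among 6 tRNA rows in all, or 2.62%. Against M1N and M2N alone it was -0.55 for chr13.tRNA83-LysTTT and -0.42 for chr7.tRNA1276-LysTTT (adjusted p = 0.257 and 0.404).

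The row of the minor LysTTT sequence also set TN1 and TN2 apart within a library, where the scaling plays no part. Of the counts of chr7.tRNA1276-LysTTT and chr1.tRNA485-LysTTT together, the former held 7.43% in TN1 (95% exact binomial interval 5.74 to 9.42) and 7.46% in TN2 (5.22 to 10.3). It held 4.4% in M1N (3.09 to 6.07) and 3.22% in M2N (2.07 to 4.76). In WD mice it held 3.21% to 3.89%, with intervals from 1.84 to 6.07 in all. Both TN mice were thus above the 6 others, although the intervals of M1N, M2W and M3W reach into the interval of TN1 or TN2. This contrast among controls was seen in the data and carries no test. LysTTT-a and LysTTT-b differ only at positions 4 and 69, and the authors' alignment allowed mismatches. Reads of LysTTT-a may thus be counted in the minor row, which the binomial intervals do not cover.

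**Figure D2:**
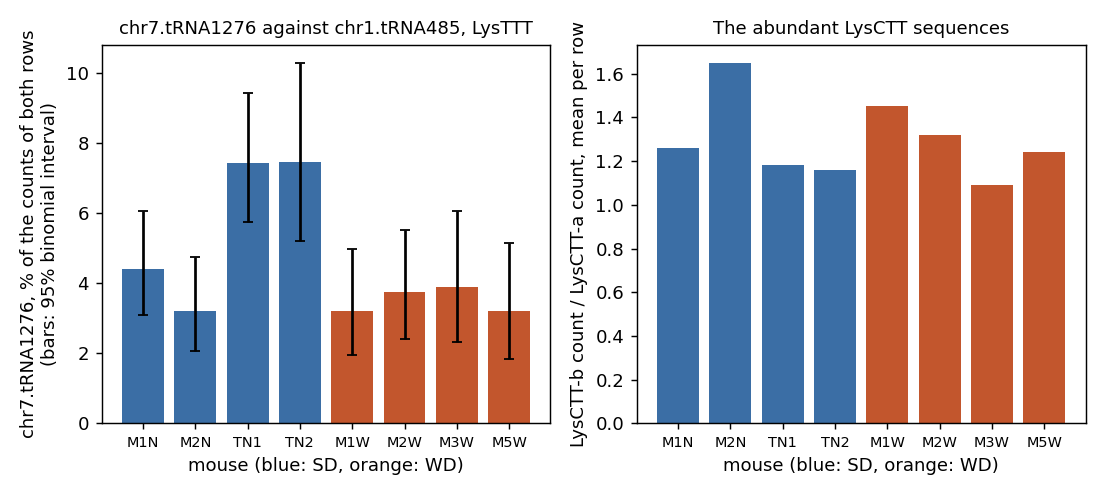
Left, counts of chr7.tRNA1276-LysTTT as a percentage of its counts and those of chr1.tRNA485-LysTTT in each mouse, with 95% exact binomial intervals; TN1 and TN2 are at 7.43% and 7.46%, the 6 other mice between 3.21% and 4.4%. Right, the ratio of LysCTT-b to LysCTT-a counts per row, from 1.09 in M3W to 1.65 in M2N; blue bars are SD and orange bars WD mice.

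Among the low lysine rows, chr16.tRNA267-LysCTT, also named after its values were seen, had 4, 6, 5 and 2 counts in M1N, M2N, TN1 and TN2 and 1, 2, 2 and 1 in the WD mice. Its CPM values did not overlap, but the lowest control, at 0.926, and the highest WD mouse, at 0.922, rested on 2 counts each, under the floor of 3. It was left out by the filter on low counts.

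Arginine tRNAs were sparse apart from 1 gene. Of the 23 arginine rows 17 had a mean count under 10, and 8 were tested. chr11.tRNA945-ArgCCG, of sequence ArgCCG-a, held 38.5% to 55.9% of all arginine counts. Its counts were 232 in M1N, 172 in M2N, 163 in TN1 and 55 in TN2, and 164 in M1W, 154 in M2W, 125 in M3W and 118 in M5W. In CPM the controls ran from 25.5 in TN2 to 79.5 in M1N, with a mean of 52.8 ± 22.1 (SD, n = 4). The WD mice, from 36.7 to 67.5 with a mean of 53.9 ± 12.8 (SD, n = 4), all lay within that range. The log2 fold change was 0.02 (SE 0.27, 95% interval -0.56 to 0.60, adjusted p = 0.979 by edgeR). Since it was -0.32 against M1N and M2N and 0.45 against TN1 and TN2, its sign turned with the controls.

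The other CCG genes gave few counts: chr17.tRNA994-ArgCCG, of ArgCCG-c, had a mean count of 9.9 and chr13.tRNA997-ArgCCG one of 3.8. The CCT rows, which decode AGG, were even, at mean counts of 13 to 18.8. The highest, chr6.tRNA107-ArgCCT of sequence ArgCCT-c, had 20, 21, 30 and 13 counts in the controls and 22, 15, 13 and 16 in the WD mice, with a log2 fold change of -0.24 (SE 0.27, edgeR's adjusted p = 0.663). chr3.tRNA628-ArgTCT, the highest decoder of AGA, had 15, 7, 11 and 3 counts in the controls and 12, 9, 5 and 9 in the WD mice, with a log2 fold change of 0.06 (SE 0.40, edgeR's adjusted p = 0.951). The diets overlapped in both rows, and the controls spanned the wider range of CPM in each.

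The highest TCG and ACG rows were below the filter. chr11.tRNA1023-ArgTCG was at 3 to 7 counts in SD and 3 to 9 in WD mice, and chr14.tRNA209-ArgACG at 6 to 9 and 4 to 7. Summed over rows, all arginine isoacceptors could be tested. Log2 fold changes were 0.24 for ArgTCG (95% interval -0.32 to 0.80), -0.21 for ArgCCT (-0.68 to 0.27), -0.04 for ArgTCT (-0.69 to 0.62), 0.03 for ArgCCG (-0.51 to 0.58) and -0.02 for ArgACG (-0.72 to 0.69). None passed the test in edgeR, with adjusted p from 0.652 to 0.984, and the intervals together span -0.72 to 0.80. ArgTCG was 0.12 without M1W and 0.43 without M1N, and ArgCCT -0.08 without TN1 and -0.37 without TN2.

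**Figure D3:**
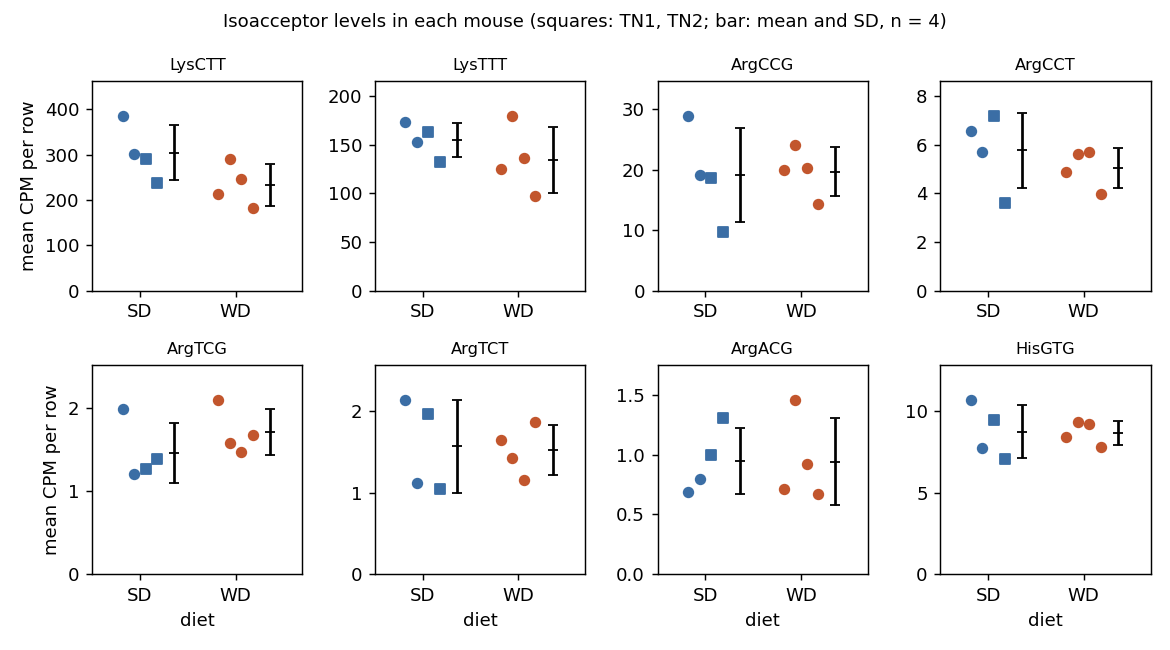
CPM per row of each isoacceptor in each mouse, by diet; circles are mice named M, squares TN1 and TN2, and the black bars the mean and SD of 4 mice. Every axis starts at 0, and the diets overlap in all 8 panels.

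Histidine rows were intermediate in level. Of 10 rows 9 were tested. The rows on chromosome 2 were highest, with mean counts of 36.4 to 40.2, and chr2.tRNA1431-HisGTG and chr2.tRNA1432-HisGTG had identical counts in all 8 mice. chr4.tRNA1697-HisGTG, of the same sequence HisGTG-a, had a mean count of 23.5. Within a mouse the variance over the mean of the 4 rows matched to HisGTG-a was 0.545 to 8.37 with a median of 0.794.

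chr2.tRNA586-HisGTG had 68 counts in M1N, 37 in M2N, 47 in TN1 and 26 in TN2, and 37 in M1W, 31 in M2W, 35 in M3W and 41 in M5W. Its ratio to chr4.tRNA1697-HisGTG was 3.24 in M1N and 1.37 to 1.78 in the 7 other mice. M1N stood apart on the CPM scale too, at 23.3 where the others were at 11.8 to 16.1. The log2 fold change of chr2.tRNA586-HisGTG was -0.20 (SE 0.25, edgeR's adjusted p = 0.709). The sum of the 10 histidine rows was 107, 77.5, 94.8 and 70.9 CPM in the controls and 83.8, 93.4, 92.2 and 77.8 in the WD mice. It had a log2 fold change of -0.01 (SE 0.17, 95% interval -0.37 to 0.35, adjusted p = 0.979 by edgeR).

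By amino acid, lysine summed to 5793, 4691, 4669 and 3803 CPM in the controls and 3464, 4814, 3931 and 2888 in the WD mice. Only M1N lay above all WD mice, and only M1W and M5W lay below all controls. The log2 fold change was -0.32 (SE 0.20, 95% interval -0.74 to 0.09, adjusted p = 0.418 by edgeR). It was -0.48 against M1N and M2N and -0.17 against TN1 and TN2, neither called, where 21.7% and 0.112% of the rows of that table were. Arginine summed to 142, 101, 112 and 66.2 CPM in the controls and 106, 123, 107 and 82.7 in the WD mice, with a fold change of -0.02 (95% interval -0.46 to 0.43, adjusted p = 0.975 by edgeR). Scaling by column totals moved the median fold change of all rows to 0.05 and those of arginine and histidine to 0.05 each, a turn of sign that leaves them at that median.

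**Figure D4:**
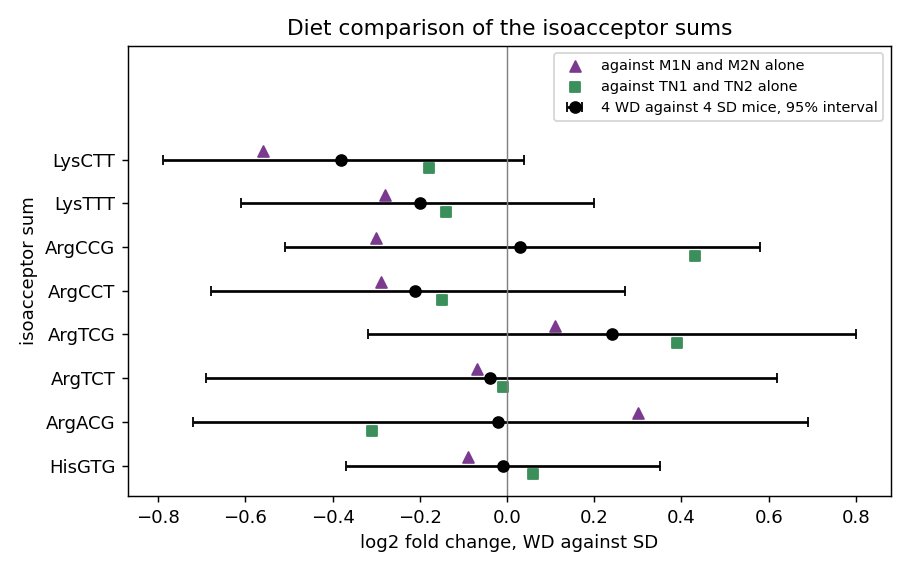
Log2 fold change, WD against SD, of the sum of each isoacceptor: black points with 95% intervals for 4 against 4 mice, triangles against M1N and M2N alone, squares against TN1 and TN2 alone. All intervals include 0, and ArgCCG, ArgACG and HisGTG change sign between the pairs of controls.

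The balance of isoacceptors was compared within each mouse, which needs no scaling. The log2 ratio of LysCTT to LysTTT sums was 1.45, 1.27, 1.13 and 1.13 in M1N, M2N, TN1 and TN2, and 1.06, 0.98, 1.15 and 1.2 in M1W, M2W, M3W and M5W. The mean was lower by 0.15 in WD mice (difference -0.15), with an overlap formed by TN1, TN2, M3W and M5W (two-sided exact permutation test over 70 assignments, p = 0.171, adjusted over 2 ratios p = 0.229). It was -0.26 against M1N and M2N, -0.03 against TN1 and TN2 and -0.08 without M1N. The log2 ratio of arginine anticodons reading CG codons to those reading AG codons was 1.28, 1.06, 0.64 and 0.98 in the controls and 1.27, 1.39, 1.15 and 1.01 in the WD mice. WD minus SD was 0.22 (exact permutation p = 0.229, adjusted p = 0.229). It was 0.04 against M1N and M2N, 0.40 against TN1 and TN2 and 0.10 without TN1. The smallest p this design allows is 0.0286.

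Glycine and glutamate tRNAs, prominent sources of fragments in the male germ line, were taken as a reference within each mouse. The lysine sum exceeded the glycine sum by 1.5 on the log2 scale (SD 0.51, n = 8) and was higher in 8 of 8 mice. It was below the glutamate sum in 8 of 8 mice, with a log2 ratio of -0.55 (SD 0.21). Arginine was below glycine by a log2 ratio of -3.84 and below glutamate by -5.90, and histidine by -4.09 and -6.14, each in 8 of 8 mice. All 6 comparisons had p = 0.00781, raw and adjusted over the 6, in a two-sided exact sign-flip permutation test, the smallest it can give with 8 mice. A measure with only the highest row of each isoacceptor avoids counting a read in several copies, but it also leaves out other sequences, LysCTT-a among them. On that measure lysine stood at 0.84 to glycine, above glycine in 7 of 8 mice and below it in M2W (exact sign-flip permutation p = 0.0156). On the same measure lysine was at -1.17 to glutamate, and arginine at -2.36 to glycine and -4.37 to glutamate, lower in 8 of 8 mice each. Histidine was then at -4.55 to glycine and -6.56 to glutamate. As a mean over its rows, histidine was at -2.53 to glycine and -5.12 to glutamate.

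The mitochondrial tRNAs of the same amino acids, encoded in the mitochondrial genome and separate from the members, gave no call either. mt-Th, for histidine, had counts of 126, 52, 71 and 41 in the controls and 73, 40, 27 and 58 in the WD mice, a log2 fold change of -0.48 (SE 0.29, edgeR's adjusted p = 0.429). mt-Tk, for lysine, had 0.08 (SE 0.39, edgeR's adjusted p = 0.929), and mt-Tr, for arginine, -0.64 (SE 0.55, edgeR's adjusted p = 0.563). The mt-Tr value rests on M1N, at 20.6 CPM where the other 7 mice were at 1.85 to 6.45, and the medians were 4.28 in SD and 4.94 CPM in WD mice. Without M1N mt-Tr was at 0.48 (SE 0.37, edgeR's adjusted p = 0.713) and mt-Th at -0.09 (SE 0.23, edgeR's adjusted p = 0.931). The sign of mt-Tk turned too, to -0.47 without M1W (SE 0.37, edgeR's adjusted p = 0.617), -0.09 without M1N and -0.06 without M2N. Against the nuclear rows the order differed, as mt-Th was the most abundant of the 3 in every mouse. The nuclear histidine sum was below that of lysine in every mouse and below that of arginine in every mouse except TN2. As a mean over rows, nuclear histidine, at 7.09 to 10.7 CPM, was instead above arginine, at 2.88 to 6.18 CPM.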

How the data were processed

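The authors cut reads at the adaptor or at a fixed length shorter than a tRNA, aligned them to mm9 with Bowtie and deposited unscaled read counts, a column for each mouse and a row for each small RNA. The handling of reads with several matches is not given in the sources used here. DESeq, named in the submitters' processing notes, did not scale these values, which are whole numbers with unequal totals. Library preparation used total RNA and the SOLiD Total RNA-seq kit.

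The diets were compared in edgeR 4.0.16 under R 4.3.3 (TMM scaling, filterByExpr with a minimum count of 10 and total of 15, quasi-likelihood test, two-sided, diet as the only term), fitted on the whole table and adjusted over all rows tested. For sums, every tRNA row was replaced by the sum over its isoacceptor or amino acid. SEs derive from the F statistic. Ratios took 0.5 added to each sum. The scripts were tested on simulated data. tRNA genes were sought by cloverleaf structure with at most 1 unpaired stem position, and gene positions were compared with GENCODE M1. Alternatives were DESeq2 1.42.0, voom of limma 3.58.1, other scalings and filters, each control pair and leaving out each mouse.

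Members and lists were chosen with earlier results of these data known. Named rows were the highest of each isoacceptor, the chromosome 1 LysTTT pair, called rows, and rows with identical counts. Other rows in the text, among them chr13.tRNA83-LysTTT, chr7.tRNA1276-LysTTT, chr16.tRNA267-LysCTT, chrX.tRNA643-LysCTT, chr17.tRNA994-ArgCCG, chr13.tRNA997-ArgCCG and chr4.tRNA1697-HisGTG, were named after their values were seen. The mice are separate animals, so p-values measure the spread between mice. Columns not used numbered 0. Depth of 2064562 to 3253798 counts per mouse limits rows near the floor of 3 counts.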

Additional observations from a re-analysis of the deposited data

Results flagged for a closer look

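In groups of 4 mice, 1 value stood far from its group: mt-Tr, the mitochondrial arginine tRNA, was at 20.6 CPM in M1N, where the other controls were at 1.85 to 4.78, and the gap made up 0.843 of the group's range, past Dixon's critical value. Of 56 groups examined this was 1, where chance alone gives about 2.8.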

How the results depend on the processing

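With DESeq2, limma-voom, column totals, upper-quartile factors or DESeq2 size factors, 0 members were called. The same held with adjustment within the tRNA rows in the comparison of all 8 mice. Shares of all rows called by these alternatives, or on leaving out a mouse, are not given here. Those counts of 0 are therefore not read as a result about the members. Against either control pair that adjustment called 2 rows, LysCTT-b rows against M1N and M2N and the minor LysTTT rows against TN1 and TN2, beside 17 of 248 tRNA rows (6.85%) and 6 of 229 (2.62%). Against M1N and M2N alone 2 rows were called, beside 20.8% of all rows. There 9 rows and 1 isoacceptor were at an unadjusted p of 0.05 or less, beside 35.5% of all rows and 35.8% of the table with isoacceptor sums. Without a filter 4 rows reached that value, beside 13.3% of all rows. Leaving out each mouse gave 0 called rows, 1 to 11 rows and 0 to 1 isoacceptors at an unadjusted p of 0.05 or less, beside 7.49% to 22.8% of all rows and 7.6% to 23.0% of the table with isoacceptor sums. chr9.tRNA1035-LysCTT reached -0.68 (adjusted p = 0.0183 by edgeR) against M1N and M2N. Its adjusted p was 0.0183 to 1 over all alternatives.

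Sums with changes near 0 turned sign, and the cause was not tested. The arginine sum was 0.02 with limma-voom, 0.05 with column totals, 0.01 with upper-quartile factors, 0.21 against TN1 and TN2, and 0.02 with the highest row of each isoacceptor, an alternative added after seeing the data. The histidine sum and HisGTG were 0.00 with limma-voom, 0.05 with column totals, 0.01 with upper-quartile factors and 0.06 against TN1 and TN2. ArgACG was 0.03 with column totals and 0.30 against M1N and M2N. ArgCCG was -0.30 against M1N and M2N. ArgTCT was 0.02 with limma-voom, 0.03 with column totals and 0.06 with the highest row. Against M1N and M2N, chr11.tRNA945-ArgCCG was -0.32 and chr3.tRNA628-ArgTCT -0.16.

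Leaving out each mouse in turn, log2 fold changes ranged from -0.47 to -0.21 for lysine, -0.18 to 0.15 for arginine, -0.10 to 0.09 for histidine and HisGTG, -0.51 to -0.25 for LysCTT, -0.38 to -0.08 for LysTTT, -0.36 to -0.07 for chr1.tRNA485-LysTTT, -0.37 to -0.07 for chr1.tRNA1184-LysTTT, -0.37 to -0.08 for chr19.tRNA107-LysTTT, -0.33 to -0.08 for chr6.tRNA107-ArgCCT, -0.56 to -0.30 for chr9.tRNA1035-LysCTT, 0.12 to 0.43 for ArgTCG, -0.37 to -0.08 for ArgCCT, -0.30 to 0.15 for ArgACG, -0.18 to 0.28 for ArgCCG, -0.18 to 0.14 for ArgTCT, -0.20 to 0.27 for chr11.tRNA945-ArgCCG, -0.31 to 0.07 for chr2.tRNA586-HisGTG, -0.14 to 0.40 for chr3.tRNA628-ArgTCT and, added after seeing the data, -0.65 to -0.09 for mt-Th, -0.47 to 0.29 for mt-Tk and -0.92 to 0.48 for mt-Tr.

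The number 1 or 2 recurs in the names of M1N and M1W and of M2N and M2W, which are different animals. The differences M1N minus M2N and M1W minus M2W had r = -0.06 across 16955 rows. This contrast alone cannot decide whether the numbers mark a pairing of the mice. In these 4 mice, with and without the replicate block, 0 of 34 tested members were called and 0 reached an unadjusted p of 0.05 in edgeR. The share of all rows is not given for these fits, so the counts are not read as a result about the members. With the block and without it, ArgACG was 0.50 and 0.51, ArgCCG -0.11 and -0.12, chr11.tRNA945-ArgCCG -0.13 and -0.15, and chr6.tRNA107-ArgCCT 0.03 and 0.04. Sums over each row type were not run, because the types share no tRNA. Low counts limit ArgACG, ArgTCG and ArgTCT, with every row at a mean under 10.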
